A study of Mus musculus with 4 samples.

Results

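The genes described here are 76 of the 53379 genes in the table of FPKM deposited for large intestinal (LI) Treg cells, and they encode interleukins, interleukin receptors and a few closely related cytokines. They were chosen by symbol, with earlier results of these data known. The symbols of 71 members start with Il followed by a digit, and *Ifng*, *Ifngr1*, *Ifngr2*, *Csf2* and *Csf1* were added as 5 further members. The table holds 83 symbols with this start, from which 11 named genes (*Il1rl1*, *Il1r1*, *Il23r*, *Il17a*, *Il17f*, *Il22*, *Il2ra*, *Il2rb*, *Il2rg*, *Il10* and *Il12a*) and the antisense RNA *Il1bos* were left out. All 76 members are annotated as protein-coding.

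Interleukins are secreted proteins through which leukocytes signal to one another and to tissue cells. Most of their receptors are assembled from a private chain that binds the ligand and a chain that several receptors share, such as the common gamma chain, gp130 or IL-10Rβ, and they signal through JAK kinases and STAT proteins, whereas the receptors of the IL-1 family signal through MyD88 and IRAK kinases. Treg cells of the large intestine, which express the transcription factor Foxp3 and restrain inflammation, live among such signals from the epithelium, myeloid cells and other T cells.

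The study asked what the loss of Setd2, which trimethylates lysine 36 of histone H3, changes in Treg cells. The mRNA of LI Treg cells (CD3+CD4+YFP+) of C57BL/6 mice at steady state was sequenced, with 2 control and 2 KO libraries. The control mice carried 1 floxed and 1 intact *Setd2* allele (Setd24flox/+Foxp3-YFPcre in the labels) and the KO mice 2 floxed alleles (Setd24flox/floxFoxp3-YFPcre), so both groups carried the Cre-YFP transgene, which the *Foxp3* locus drives and which acts in Treg cells. Each library was a pool of 2 to 3 littermate mice, of 6 to 12 weeks of age according to the general methods, and the spread within a group is therefore the spread between pools. The FPKM of the 4 libraries had been brought to a common distribution, with sums that differed by at most 0.0098%, and the depth behind each value is unknown. *Setd2* itself could not serve to check the genotype. Its FPKM, which covers the whole gene, read 38.19 and 27.36 in control 1 and 2 and 26.33 and 36.30 in KO 1 and 2. Why these groups overlapped was not tested. The Treg markers *Ctla4* and *Tnfrsf18* lay between 1593.26 and 2310.35, but *Foxp3* lay between 2.62 and 5.61. *Ctla4* rose from 1593.26 and 1700.67 in control to 2159.97 and 2310.35 in KO, without overlap. *Ikzf2* fell from 120.75 and 115.57 in control to 84.12 and 98.36 in KO, also without overlap. The groups overlapped for *Foxp3*, *Tnfrsf18*, *Cd3e* and *Cd4*, the other listed markers of Treg and CD4 T cells. What set *Ctla4* and *Ikzf2* apart was not tested. These are bulk samples, in which fewer cells of a type and less RNA per cell cannot be told apart.

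Among the members, LI Treg cells expressed more of the receptors than of the cytokines. The names left out are not counted here. They include the cytokine gene *Il10* (FPKM of 1040.15 to 1100.55) and the receptor gene *Il2rg* (2703.76 to 3361.14). Of the 76 members, 29 exceeded a mean FPKM of 5 in control or KO, which with protein-coding annotation was the filter of the study, and were tested with limma on log2(FPKM + 1) together with all 7639 genes that met it. These 29 comprised 19 of 37 receptor genes and 10 of the 39 other members, which are cytokines, antagonists and binding proteins. The receptor genes tested had a median control FPKM of 42.4 and the others of 14.7. FPKM are per length of transcript, but the levels of different genes compare only roughly. The libraries had been brought to a common distribution by an unnamed step, and they differed along GC content, as described below. Another 16 members reached an FPKM of 1 in at least 1 library, 21 stayed between 0 and 1, and 10 were listed at 0 in all libraries.

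**Figure D1:**
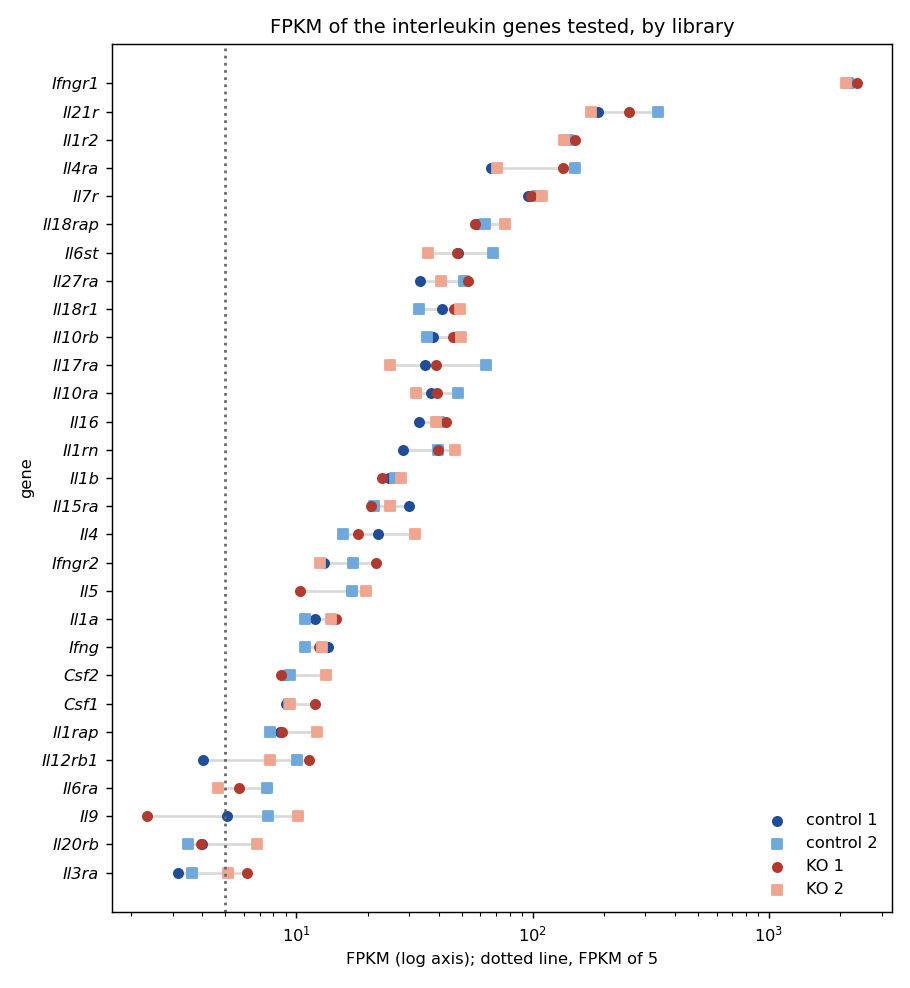
FPKM (log axis) of the 29 interleukin and receptor genes tested, 1 point per library, with control in blue and KO in red, circles for replicate 1 and squares for replicate 2; the grey line spans the 4 libraries and the dotted line marks an FPKM of 5. *Ifngr1* lay above 2108 in every library, the next gene *Il21r* between 177 and 339, and for most genes the blue and red points intermingle.

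Few of the 29 members differed between the genotypes beyond the spread between pools. At an unadjusted p below 0.05, the threshold of the study, 3 members were higher in KO (*Il10rb*, *Il3ra* and *Il18r1*), beside 8.61% of all genes tested, and 0 were lower, beside 7.57%. The 3 calls are 10.3% of the members tested, beside 16.2% of all genes tested in either direction. This share depends on the names left out, of which 9 were tested and 5 called (*Il1rl1*, *Il17a*, *Il17f*, *Il22* and *Il23r*), and with them it is 8 of 38, or 21.1%. At an adjusted p below 0.05 (Benjamini-Hochberg over all genes tested), 0 members passed, beside 0.589% of all genes, and the smallest adjusted p of a member was 0.222. The median log2 fold change (KO over control) of the members was 0.11, against -0.0039 over all genes tested, and 19 estimates lay above 0 and 10 below, where 49.4% of all genes had an estimate above 0. With a filter blind to genotype, a mean FPKM above 5 over all 4 libraries, 27 members remained and the median was 0.055. Of these 27, 2 were called as raised in KO (*Il10rb* and *Il18r1*) and 0 as reduced, beside 623 and 539 of 7376 genes. *Il3ra* was not among the 27, since only its KO mean had met the main filter. Both KO libraries lay on the same side of both control libraries for 9 members, or 31.0%, beside 47.1% of all genes tested. These 9 were *Il10rb*, *Il18r1*, *Il3ra*, *Il1rn*, *Il1a*, *Csf1* and *Il1rap*, which were above control, and *Il6st* and *Il6ra*, which were below. For any gene by itself, 2 against 2 libraries allow an exact permutation p of 0.333 at the lowest, so limma's p-values depend on the variance pooled over genes.

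**Figure D2:**
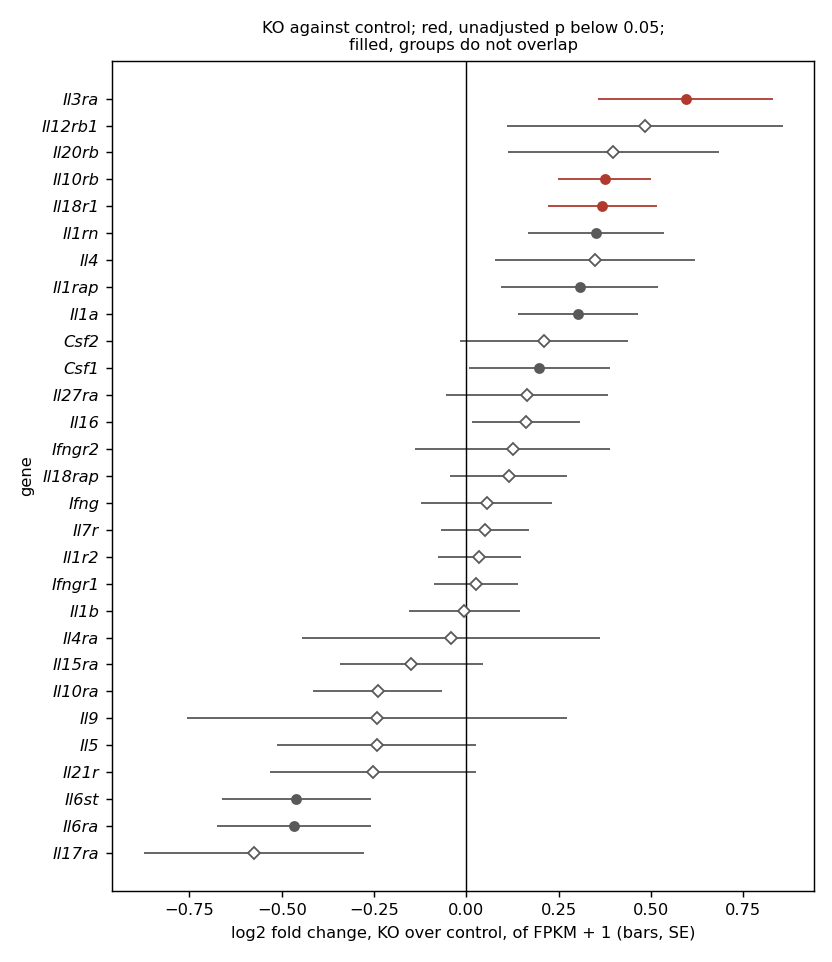
Log2 fold change (KO over control, on log2(FPKM + 1)) of the 29 genes tested, with bars of 1 SE from limma; red marks an unadjusted p below 0.05, filled circles mark genes whose groups do not overlap and open diamonds genes whose groups do. The 3 red genes have estimates of 0.37, 0.37 and 0.59, and the estimates range from -0.57 for *Il17ra* to 0.59 for *Il3ra*.

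The 3 genes called higher in KO each encode a chain of a cytokine receptor. *Il10rb* (ENSMUSG00000022969, chromosome 16, 91406164 to 91425834 of GRCm38) encodes IL-10Rβ, the accessory chain that the receptors for IL-10 and IL-22 share. Its FPKM in control 1, control 2, KO 1 and KO 2 was 37.83, 35.78, 46.19 and 49.86. The KO libraries exceeded the control libraries, and the log2 fold change was 0.37 (SE 0.13, limma adjusted p = 0.222). The gene overlaps *Gm21970* on the same strand and shares 20.5% of its transcript with it, and that gene was listed at no more than 0.27. The other chain of the IL-10 receptor is encoded by *Il10ra*, which had an FPKM of 37.01 and 48.32 in control and 39.48 and 32.20 in KO, with overlapping groups and a log2 fold change of -0.24 (limma adjusted p = 0.546).

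*Il18r1* (ENSMUSG00000026070, chromosome 1, 40465552 to 40500854) encodes the chain that binds IL-18, a cytokine released by epithelial and myeloid cells. Its FPKM was 41.17 and 33.03 in control 1 and 2 and 46.40 and 49.48 in KO 1 and 2. The groups did not overlap, and the log2 fold change was 0.37 (SE 0.15, limma adjusted p = 0.285). *Il18rap*, the signalling chain of the same receptor, lies 14.5 kb further along the same strand and had an FPKM of 58.63 and 63.09 in control and 57.11 and 76.09 in KO. Its groups overlapped, and its log2 fold change of 0.11 (SE 0.16, limma adjusted p = 0.782) did not pass the test. On the other side of *Il18r1*, the gene for the IL-33 receptor, *Il1rl1*, ends at position 40465415 on the same strand. The level of *Il1rl1* fell by 0.93 on the log2 scale (limma adjusted p = 0.0344). The estimates of *Il1rl1* and *Il18r1* thus had opposite signs, but only that of *Il1rl1* passed at an adjusted p below 0.05.

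*Il3ra* (ENSMUSG00000068758, chromosome 14, 14346275 to 14356011) encodes the α chain of the receptor for IL-3, a growth factor of haematopoietic cells. It had the lowest mean FPKM over the 4 libraries of the members tested, with 3.16 and 3.63 in control and 6.17 and 5.12 in KO. Its log2 fold change was 0.59 (SE 0.24, limma adjusted p = 0.284). *Il3ra* and *Il20rb*, which encodes a chain of receptors for IL-20 family cytokines, passed the filter through the KO mean only, so an estimate above 0 was built into their inclusion. *Il20rb* had an FPKM of 4 and 3.47 in control and 3.96 and 6.83 in KO. *Csf2rb* and *Csf2rb2*, the signalling chains with which IL-3Rα pairs, were below 1 in all libraries. The calls of *Il10rb*, *Il18r1* and *Il3ra* were all lost when the replicate number was taken as a block (limma adjusted p = 0.518, 0.550 and 0.550). Those of *Il10rb* and *Il18r1* were also lost without KO 1, KO 2 or control 2, and that of *Il3ra* without KO 1, control 1 or control 2. The call of *Il18r1* was also lost with no trend or no filter on low FPKM, and that of *Il3ra* with all gene types. Over the fits to 3 libraries, the estimates ran between 0.32 and 0.43 for *Il10rb*, between 0.21 (without control 2) and 0.52 for *Il18r1*, and between 0.48 and 0.71 for *Il3ra*.

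Among the genes with lower estimates in KO, the receptor chains for IL-6 lay nearest to the threshold. *Il6st* encodes gp130, the signal-transducing chain of the receptors for IL-6, IL-11 and IL-27. In control 1, control 2, KO 1 and KO 2 its FPKM was 48.51, 68.05, 47.95 and 35.91. The KO libraries were below the control libraries, by a small margin between KO 1 and control 1, and the log2 fold change was -0.46 (SE 0.20, limma adjusted p = 0.322), and between -0.22 (without control 2) and -0.70 (without control 1) with 1 library left out. *Il6ra*, which encodes the chain that binds IL-6, was at 7.51 and 7.54 in control and 5.70 and 4.68 in KO, with a log2 fold change of -0.47 (SE 0.21, limma adjusted p = 0.327). The antisense gene *Gm42809* overlaps *Il6ra* and reached an FPKM of 7.26, and whether reads were counted by strand is not stated. *Il27ra*, whose product pairs with gp130 to bind IL-27, was at 33.42 and 51.32 in control and 53.04 and 40.87 in KO. Its groups overlapped, and its log2 fold change was 0.16 (SE 0.22, limma adjusted p = 0.774). *Il17ra*, the chain that the receptors for IL-17A, IL-17F and IL-25 share, had the lowest estimate, at -0.57 (SE 0.30, limma adjusted p = 0.399). Its groups nonetheless overlapped, with 35.01 and 63.21 in control and 39.12 and 24.98 in KO, and the estimate was -0.16 without control 2 and -0.99 without control 1. Both *Il6st* and *Il17ra* passed the unadjusted threshold without control 1 or without KO 1.

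*Ifngr1*, *Il21r*, *Il1r2*, *Il4ra* and *Il7r*, the members with the highest mean FPKM, differed little between the genotypes or more within a genotype than between them. *Ifngr1* encodes the ligand-binding chain of the interferon-γ receptor and had the highest FPKM of all members, at 2217.76 and 2159.97 in control and 2356.66 and 2108.23 in KO. Its log2 fold change was 0.03 (SE 0.11, limma adjusted p = 0.943). *Ifngr2*, the second chain of this receptor, was far lower, at 13.09 and 17.44 in control and 21.69 and 12.62 in KO. *Il1r2* encodes the decoy receptor that captures IL-1 without signalling and was at 137.40 and 141.08 in control and 150.75 and 135.12 in KO, with a log2 fold change of 0.04 (SE 0.11, limma adjusted p = 0.921). *Il7r*, the receptor for the survival factor IL-7, was at 95.71 and 104.53 in control and 98.04 and 109.52 in KO, with a log2 fold change of 0.05 (SE 0.12, limma adjusted p = 0.887). The SEs of *Ifngr1*, *Il1r2* and *Il7r* were the 3 smallest of the members tested, whose median SE was 0.20.

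*Il21r* and *Il4ra*, which encode the receptor chains for the T cell cytokines IL-21 and IL-4, showed another pattern. In control 1, control 2, KO 1 and KO 2, the FPKM of *Il21r* was 189.25, 339.44, 255.18 and 177.03. The FPKM of *Il4ra* was 66.71, 150.75, 135.00 and 70.33 in the same order. In both genes control 2 and KO 1 were high and control 1 and KO 2 were low, so each group held a high and a low library. The log2 fold changes were -0.25 for *Il21r* (SE 0.28, limma adjusted p = 0.712) and -0.04 for *Il4ra* (SE 0.40, limma adjusted p = 0.978), and these SEs were larger than the median SE of the members. The genes are neighbours on chromosome 7, 24.0 kb apart on the + strand. The sequences before their starts are shown because the pair moved together across libraries. They are from RefSeq (GRCm38.p6, + strand), at chr7:125552021-125552119 for *Il4ra* and chr7:125603179-125603428 for *Il21r*, and capitals mark the GC box GGGCGG.
Il4ra: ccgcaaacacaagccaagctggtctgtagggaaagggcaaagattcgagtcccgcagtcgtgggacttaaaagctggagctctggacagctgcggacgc
Il21r: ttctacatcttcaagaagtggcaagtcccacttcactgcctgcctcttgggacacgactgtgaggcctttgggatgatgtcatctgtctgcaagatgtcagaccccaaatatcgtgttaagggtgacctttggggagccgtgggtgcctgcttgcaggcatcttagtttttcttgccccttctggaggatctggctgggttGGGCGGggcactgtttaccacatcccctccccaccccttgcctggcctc
GGGCGG was searched on both strands, as were TTCNNNGAA, the form bound by STAT proteins, and TGANTCA, the form bound by AP-1. The 250 bases of *Il21r* held 1 GGGCGG and the 99 bases printed for *Il4ra* held none of the 3 motifs. Over the windows of 250 bases before 32536 RefSeq starts, 33% held GGGCGG, 7.04% TTCNNNGAA and 6.73% TGANTCA. These matches are descriptions of letters and not binding sites.

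The same split of libraries ran through other members. The difference between the control libraries and that between the KO libraries had opposite signs in 20 of the 29 members, or 69.0%, compared with 63.1% of all genes tested. In 13 of these, or 44.8% of the members, control 2 and KO 1 were the high libraries, beside 30.7% of all genes, and in 7, or 24.1%, they were the low ones, beside 32.4%. Of the 19 receptor genes, 11 were high and 5 low in control 2 and KO 1, and of the other 10 members 2 were high and 2 low. The receptor genes and the other members were not matched for GC content, which moved with this split, as described below. Besides *Il4ra* (1.16 for control 2 minus control 1 and -0.93 for KO 2 minus KO 1 on the log2 scale) and *Il21r* (0.84 and -0.53), the difference was wide in *Il12rb1* (1.14 and -0.50), a chain of the receptors for IL-12 and IL-23, and in *Il17ra* (0.83 and -0.63). *Il4* had the opposite pattern, with -0.46 and 0.76, and *Il9* was higher in replicate 2 of either group, with 0.49 and 1.74. The gap between the libraries of at least 1 group was larger than the difference between the group means in 24 members, or 82.8%, compared with 64.7% of all genes.

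**Figure D3:**
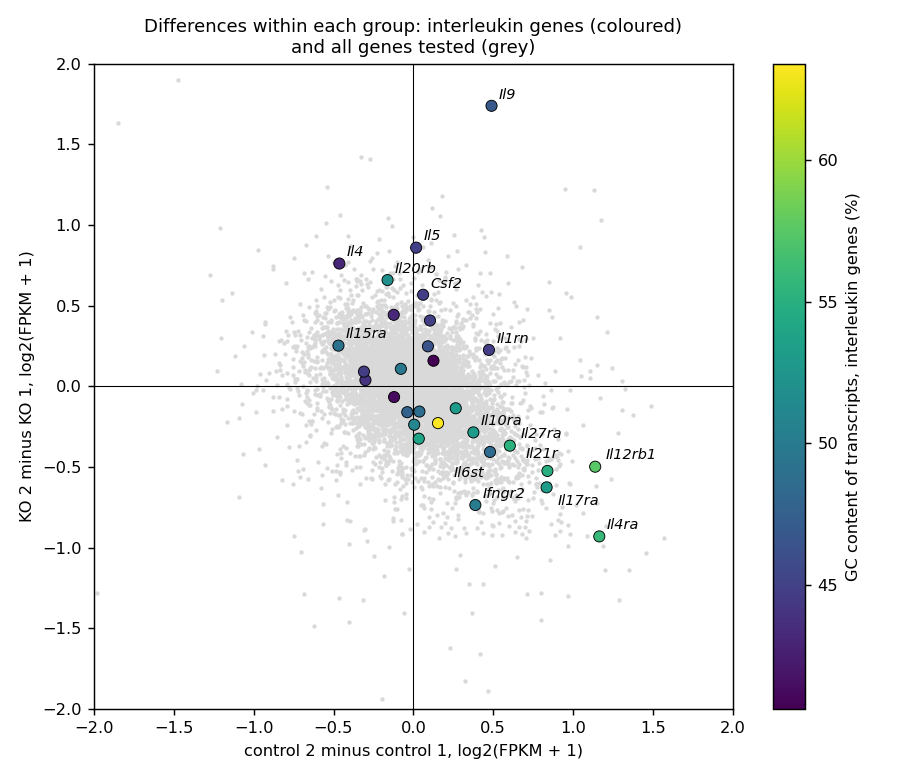
Difference between the control libraries (x axis) and between the KO libraries (y axis), in log2(FPKM + 1), for the 29 interleukin and receptor genes tested (coloured by the GC content of their transcripts) and all 7639 genes tested (grey, of which 15 fall outside the axes). *Il4ra*, *Il12rb1*, *Il21r* and *Il17ra* lie at the lower right, high in control 2 and KO 1, and *Il4* lies at the upper left.

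The GC content of transcripts moved with this split. Over all 7639 genes, GC content had a Spearman rho of 0.342 with the difference between the control libraries and of -0.371 with that between the KO libraries, and over the 29 members rho was 0.562 and -0.666. The genes share the 4 libraries, so these are descriptions. GC content was 55.9% for *Il4ra*, 54.9% for *Il21r*, 57.5% for *Il12rb1* and 53.2% for *Il17ra*, against 43.1% for *Il4* and a median of 49.4% over all genes tested. After a correction of each library for GC content, the differences were still 1.03 and -0.78 for *Il4ra* and 0.73 and -0.40 for *Il21r*. GC content had a rho of -0.0742 with the log2 fold change between the genotypes. What set the libraries apart was not tested.

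The cytokine genes among the members were lower and none of them passed the test. Of the cytokine genes left out by name, *Il17a*, *Il17f* and *Il22* were called higher in KO at an unadjusted p below 0.05. Their limma adjusted p was 0.0875, 0.0679 and 0.0557. *Il10*, also left out, was not called (log2 fold change 0.06, limma adjusted p = 0.846). *Il4*, which drives type 2 responses, had FPKM of 22.11 and 15.76 in control and 18.26 and 31.64 in KO. Its groups overlapped, and its log2 fold change was 0.35 (SE 0.27, limma adjusted p = 0.574). *Il5*, the eosinophil growth factor encoded on the same chromosome, was at 17.03 and 17.25 in control but at 10.38 and 19.65 in KO. KO 1 and KO 2 thus lay on either side of the control libraries, and the log2 fold change was -0.24 (SE 0.27, limma adjusted p = 0.717). *Il13*, which lies between them on chromosome 11, was nearly silent, at 0.42 and 0.33 in control and 0.28 and 0.89 in KO. *Il9*, a mast cell growth factor, was the most variable member tested, at 5.09 and 7.55 in control and 2.34 and 10.15 in KO, with a log2 fold change of -0.24 (SE 0.51, limma adjusted p = 0.871).

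*Ifng*, the gene for interferon-γ, was at 13.59 and 10.85 in control and 12.48 and 12.84 in KO. The KO libraries lay between the control libraries, and the log2 fold change was 0.05 (SE 0.18, limma adjusted p = 0.923). In intestinal Treg cells without Setd2, the study described more interferon-γ by RNA-seq, which it tested with edgeR. After stimulation, it also described a higher percentage of cells with the protein by flow cytometry. The *Ifng* FPKM used here showed no such rise. *Csf2*, which encodes the myeloid growth factor GM-CSF, was at 8.94 and 9.37 in control and 8.65 and 13.30 in KO, with a log2 fold change of 0.21 (SE 0.23, limma adjusted p = 0.703). *Csf1*, which encodes the macrophage growth factor M-CSF, was at 9.04 and 9.28 in control and 12.04 and 9.41 in KO. Its groups did not overlap by a margin between 9.28 and 9.41, and its log2 fold change was 0.20 (SE 0.19, limma adjusted p = 0.660). *Il16*, a chemoattractant for CD4+ cells, was at 33.19 and 40.10 in control and 42.97 and 39.00 in KO, and it overlaps *Stard5* on the other strand, which reached an FPKM of 19.65.

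The IL-1 family held 7 members tested, of which 1 (*Il18r1*) was called higher, 0 lower, and 6 had estimates above 0, beside 8.61%, 7.57% and 49.4% of all genes tested. *Il1rl1*, which belongs to the same family, is not among them because its name was left out. *Il1b*, an inflammatory cytokine, was at 24.57 and 26.24 in control and 23.13 and 27.65 in KO, and *Il1a*, its close relative, at 11.95 and 10.91 in control and 14.67 and 13.96 in KO. *Il1rn*, which encodes the antagonist that blocks the IL-1 receptor, was at 28.36 and 39.76 in control and 39.85 and 46.76 in KO, and *Il1rap*, the shared signalling chain, at 8.55 and 7.77 in control and 8.71 and 12.20 in KO. Both KO libraries exceeded both control libraries in *Il1a*, *Il1rn* and *Il1rap*, but none passed the test (limma adjusted p = 0.410, 0.401 and 0.525). *Il1a*, *Il1b* and *Il1rn* are also expressed by myeloid cells, whose markers were present: 5 of 7 macrophage, monocyte and dendritic cell markers exceeded 5 in a library, with sums of 220.81 and 204.68 in control and 204.87 and 256.01 in KO, to which *Lyz2* contributed most. Both KO values exceeded both control values for 4 of the 7 markers. These were *Cd14* (32.40 and 36.83 in control, 40.20 and 41.96 in KO), *Adgre1* (4.38 and 3.66, 5.60 and 6.24), *Xcr1* (1.41 and 2, 3.43 and 3.34) and *Itgam* (0.42 and 0.41, 0.76 and 0.63). Of all genes tested, 47.1% had groups that did not overlap, in either direction. Of the protein-coding genes below the filter and above 0 in a library, as *Xcr1* and *Itgam* were, 17.2% had both KO values above control. The groups overlapped for *Lyz2*, *Cd68* (24.92 and 25.14 in control, 21.36 and 31.01 in KO) and *Csf1r* (5.14 and 4.42, 5.69 and 4.86). *Lyz2* lay between 127.83 and 167.97, and 3 of the 4 granulocyte and mast cell markers stayed below 1. Their part in these levels was not tested. Of the other markers, *Jchain* (111.97 to 168.57), *Epcam* (28.65 and 30.81 in control, 19.58 and 21.13 in KO) and *Pecam1* (34.65 and 36.26 in control, 49.25 and 42.72 in KO) exceeded 5, the last of these with higher and *Epcam* with lower values in both KO libraries, and 0 of the 2 CD8 T cell and 0 of the 3 NK cell and ILC markers did.

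The remaining member tested was *Il15ra*, which presents IL-15, at 29.88 and 21.31 in control and 20.69 and 24.83 in KO, with overlapping groups. By family, the median log2 fold change was -0.10 for the 6 genes tested of the common gamma chain family and 0.30 for the 7 of the IL-1 family. It was 0.37 for the 3 of the IL-10 family and -0.46 for the 3 of the gp130 and IL-6 family, beside -0.0039 over all genes tested. The 3 of the IL-10 family were *Il10ra* (-0.24), *Il10rb* (0.37) and *Il20rb* (0.40). Of these, *Il20rb* passed the filter through the KO mean only, which raises this median. The 4 genes for interferon-γ, its receptor and M-CSF had a median of 0.09, and *Il12rb1*, the only member of the IL-12 family tested, an estimate of 0.48 (SE 0.37, limma adjusted p = 0.574). That estimate rested on control 1, since the FPKM of *Il12rb1* was 4.01 in control 1 and 10.03, 11.35 and 7.74 in control 2, KO 1 and KO 2, and without control 1 the log2 fold change was -0.086.

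Of the 47 members below the filter, 37 were above 0 in at least 1 library. The KO libraries both exceeded the control libraries for 13 of these, or 35.1%, beside 17.2% of the 10055 protein-coding genes of this kind. Both fell short of them for 3, or 8.11%, beside 11.9%. These 3 were *Il18* (2.16 and 2.17 in control, 1.75 and 2.07 in KO), *Il1rl2* (1.63 and 1.51, 0.98 and 0.94) and *Il20ra* (0.73 and 0.33, 0.29 and 0.19). Control 2 listed 28426 genes at 0, fewer than the 33223 to 33957 of the other libraries, and its part in these shares was not tested. *Il2*, the main growth factor of Treg cells, was at 0.09 and 0.01 in control and 0.69 and 1.68 in KO. *Il27*, which limits T cell responses, was at 0.21 and 0.01 in control and 1.14 and 0.79 in KO. Both genes had higher values in both KO libraries, but at levels near the bottom of the range. With the filter lowered to a mean FPKM of 1 in either group, *Il2* had a log2 fold change of 1.02 (limma adjusted p = 0.243) and *Il19*, a cytokine of the IL-10 family, of 0.91 (limma adjusted p = 0.299), and each entered through the KO mean only.

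The other T cell cytokines below the filter had overlapping groups. *Il21*, which is produced by follicular helper and type 17 cells, was at 2.09 and 0.88 in control and 1.67 and 1.45 in KO, with a log2 fold change at the lowered filter of 0.086 (limma adjusted p = 0.933). *Il6* was at 2.22 and 1.62 in control and 3.36 and 1.64 in KO, with a log2 fold change of 0.22 (limma adjusted p = 0.788). *Il3* was at 0.92 and 0.05 in control and 0.49 and 2.55 in KO, with a log2 fold change of 0.70 (limma adjusted p = 0.533). Like *Il2* and *Il19*, *Il3* met the lowered filter through the KO mean only. No group difference stood out from the range of the libraries in these 3 genes. The highest of the receptors below the filter were *Il17rb*, a chain of the IL-25 receptor, at 2.42 and 4.30 in control and 3.72 and 4.51 in KO, *Il11ra1*, the IL-11 receptor, at 2.61 and 1.58 in control and 2.72 and 5.69 in KO, and *Il9r*, the IL-9 receptor, at 2.55 to 3.10 in all libraries. *Il12rb2*, the chain specific to the IL-12 receptor, was at 1.31 and 2.27 in control and 2.96 and 3.13 in KO. The IL-17 family cytokines *Il17b*, *Il17d* and *Il25*, the IL-36 genes listed as *Il1f5*, *Il1f6* and *Il1f8*, and *Il1f10*, *Il11ra2*, *Il13ra2* and *Il22ra1* were listed at 0 in all libraries.

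**Figure D4:**
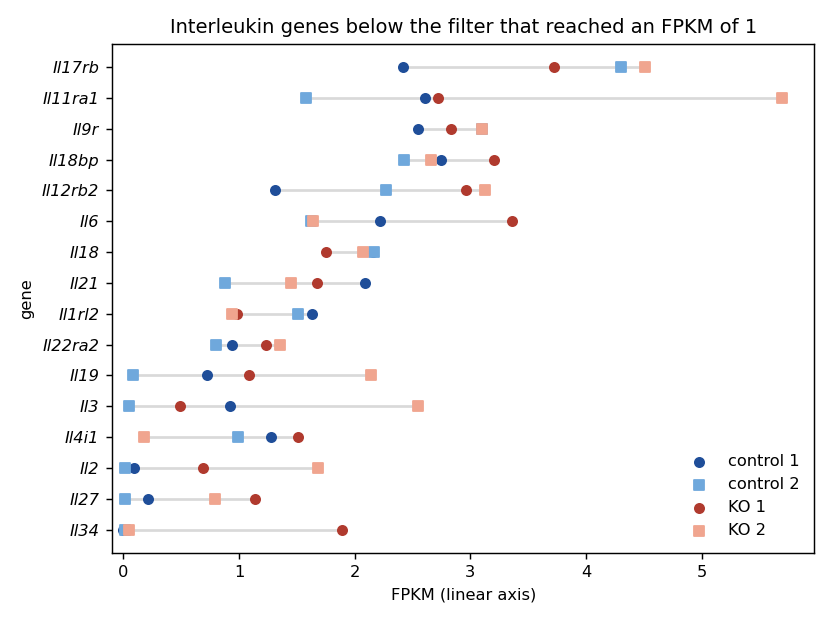
FPKM (linear axis) of the 16 interleukin and receptor genes that were below the filter but reached an FPKM of 1 in a library, with 1 point per library, control in blue and KO in red, circles for replicate 1 and squares for replicate 2. Both red points lie above both blue points for *Il2*, *Il19*, *Il27* and *Il12rb2*, among others, and below them for *Il18* and *Il1rl2*. The single high value of *Il34* was 1.89 in KO 1.

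Of 35 genes that act with these receptors (kinases, STAT and SOCS proteins, adaptors and shared chains), 26 were tested, of which 3 were higher and 3 lower in KO at an unadjusted p below 0.05, or 23.1% beside 16.2% of all genes, and 0 at an adjusted p below 0.05. The genes called higher included *Irak2*, a kinase downstream of IL-1 family receptors (log2 fold change 0.61, limma adjusted p = 0.303), and *Sigirr*, an inhibitory receptor of the same family (0.36, adjusted p = 0.238). The genes called lower were *Stat2* (-0.59, adjusted p = 0.159), which acts in type I interferon signalling, *Stat5a* (-0.45, adjusted p = 0.203), which acts downstream of the common gamma chain, and its target *Cish* (-0.43, adjusted p = 0.281), an inhibitor of cytokine signalling. The median log2 fold change of the 26 genes was -0.10. *Jak3*, the kinase bound to the common gamma chain, followed the split of *Il4ra* and *Il21r*, at 12.90 and 28.56 in control and 25.29 and 12.80 in KO.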

How the data were processed

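Per the labels and methods, poly(A) RNA of sorted LI Treg cells was sequenced in paired reads of 150 bp. The authors mapped reads to GRCm38 with STAR v2.5, quantified genes with RSEM v1.2 and deposited FPKM for 53379 genes in 2 control and 2 KO libraries. A step that gave the libraries a common distribution is not named in the sources used here. Since no counts were used, no counting interval was given.

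Gene types and positions were from GENCODE M21 (53274 identifiers matched). Protein-coding genes that exceeded a mean FPKM of 5 in control or KO (7639) were tested with limma 3.58.1 in R 4.3.3 on log2(FPKM + 1), with an empirical Bayes trend and no covariate, two-sided, which understates the fold changes of low genes. Unadjusted p below 0.05 was the threshold, and Benjamini-Hochberg adjustment ran over all genes tested. The fit was tested on simulated data. Members, gene lists and tests were chosen with earlier results of these data known. The rule gave full values for members with an unadjusted p below 0.05, the 10 most abundant and 12 T cell cytokines. *Il17ra*, *Il6ra*, *Il10ra*, *Il12rb1*, *Il1a*, *Il1rn*, *Il1rap*, *Il18*, *Il1rl2*, *Il20ra*, *Il19*, *Il34* and genes that are no members were singled out after their values were seen. For the signalling list, 1 gene is not reported here. Shared sequence was searched with blastn 2.17.0. GC content was taken over all transcripts of a gene. A RefSeq window before the start was found for 61 members. Alternatives were other pseudocounts, filters, gene types, scalings and variance models, a replicate block and each library left out. Pools were from littermates, but no source says that same-numbered pools were matched.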

Additional observations from a re-analysis of the deposited data

How the results depend on the processing

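The counts of 3 higher, 0 lower and 0 adjusted calls among 29 members changed with the processing. The count higher in KO was 5 of 43 members with a mean FPKM of at least 1, beside 828 of 10424 genes. It was 6 of 76 members with no filter, beside 1198 of 21865 genes, and 0 with the replicate block. With the filter blind to genotype, it was 2 of 27 members, beside 623 of 7376 genes. With a mean FPKM of at least 1, the calls added were *Il2* and *Il19*, which entered through the KO mean only. The count lower was 1 with a mean FPKM of at least 1, with no filter and with no trend (*Il6ra* in these), beside 714, 829 and 555 of all genes. It was also 1 with a correction for GC content (*Il6st*), beside 682 of all genes. This correction was chosen after seeing the data. With the replicate number as a block, which the labels do not tie to shared litters, 419 and 377 of all genes were called in place of 658 and 578. The deviations of same-numbered libraries correlated at r = -0.305 over 7639 genes. With 2 pools in each group, this single value cannot show whether same-numbered pools were matched. A crossed pairing (control 1 with KO 2, control 2 with KO 1) was chosen after seeing the data. With it, 5 members were higher, 4 lower and 2 passed at an adjusted p below 0.05, beside 1008, 983 and 465 (6.09%) of all genes tested. With 2 libraries in each group, a negative r between same-numbered libraries means a positive r between the crossed ones. A smaller residual spread was thus built into this choice, and these counts cannot show that the pools were paired in this way. With each library left out in turn, 1 to 3 members were higher, 0 to 4 lower (4 without control 1), 0 to 0 passed the adjusted threshold, and the median log2 fold change lay between 0.029 (without control 1) and 0.17; a group with a lone library was then assumed to vary like the other. The log2 fold change changed sign in this test for 16 members, with ranges of -0.073 to 0.49 for *Csf2*, -0.10 to 0.20 for *Ifng*, -0.054 to 0.11 for *Ifngr1*, -0.24 to 0.49 for *Ifngr2*, -0.086 to 1.05 for *Il12rb1*, -0.38 to 0.085 for *Il15ra*, -0.089 to 0.32 for *Il18rap*, -0.13 to 0.12 for *Il1b*, -0.043 to 0.11 for *Il1r2*, -0.67 to 0.17 for *Il21r*, -0.14 to 0.47 for *Il27ra*, -0.031 to 0.73 for *Il4*, -0.62 to 0.54 for *Il4ra*, -0.67 to 0.19 for *Il5*, -0.029 to 0.13 for *Il7r* and -1.11 to 0.63 for *Il9*. The other 13 members kept their direction. The 317 values of the members under the other alternatives had the direction reported, and 306 also stayed on the same side of the threshold. The cause of these changes was not tested. With 2 pools in each group and no depth, differences of the size of the spread between pools could not be detected.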
